A study of Strongylocentrotus purpuratus and Patiria miniata with 14 samples.

Results

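Open chromatin was compared between the bipinnaria larva (90 hpf, hours post fertilisation) and the mesenchyme blastula (24 hpf) of the bat sea star *Patiria miniata*. The peaks of 4 libraries, 2 replicates of each stage, were merged where they overlapped by at least 1 bp, which gave 100380 regions. A region was gained when both 90 hpf lists and neither 24 hpf list called it, lost in the reverse case, and shared when all 4 lists called it. Gained regions numbered 10409 (10.4% of the merged regions), lost regions 6707 (6.68%) and shared regions 33118 (33.0%). The remaining 50146 regions had other patterns of calls. Each region was then looked up in the 2 lists of the late gastrula (66 hpf), which had no part in defining the classes.

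All 6 sea star libraries came from lysed wild type whole embryos, raised at 15°C in ASW. They belong to a series of 14 sea star and sea urchin libraries made to compare the regulatory genomes of these echinoderms. The sources do not say whether replicates were separate cultures, and any difference between them may be technical. Because whole embryos were used, a region open in fewer cells and a region less open in each cell cannot be told apart.

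In ATAC-seq a transposase inserts sequencing adapters into DNA that is free of nucleosomes, so that peaks mark promoters, enhancers and other candidate cis-regulatory elements. At mesenchyme blastula the embryo is a hollow ball of cells. Gastrulation then forms the gut, and in the sea star mesenchyme cells leave the tip of the forming gut. The bipinnaria is a feeding, swimming larva with a mouth, a gut, coelomic pouches, a nervous system and ciliary bands. Sea star embryos make no larval skeleton, unlike those of the sea urchin.

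The lists held 63340 and 72079 peaks at 90 hpf, against 59009 and 63148 at 24 hpf. The 66 hpf lists were the shortest, with 56044 and 58073 peaks. The peak caller gave each peak a p-value and a fold enrichment, the ratio of signal at the summit to the local background, and the strength of a peak is described here by its percentile of p within its own list, where 100 is the strongest. Median fold enrichment was similar in the 4 lists of 90 and 24 hpf, 5.0 and 5.02 at 90 hpf and 5.14 and 4.98 at 24 hpf. It was higher in the 66 hpf lists, at 5.59 and 5.53. Folds at 66 hpf are set beside those of other stages as a description. The part of this difference between lists in them was not tested. The lists hold no read counts, so read depth is unknown and no list was scaled to another. A missing peak says that a region did not pass the threshold, not that it was closed. With 2 libraries against 2 no exact test over samples can reach 0.05, so classes are described by counts, and the 95% exact (Clopper-Pearson) intervals given with shares cover counting error only.

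Gained regions outnumbered lost ones 1.55 to 1 with the lists as deposited. They made up 21.0% of the 49591 regions called in both 90 hpf lists, and lost regions made up 14.7% of the 45620 regions called in both 24 hpf lists. The excess moved with list length. When each list was shortened to its 56044 strongest peaks, 8070 regions were gained and 7416 lost, a ratio of 1.09. Without 24 hpf replicate 1, which leaves the absence and presence calls of that stage to 1 library, 12923 were gained and 14809 lost, so that the order turned round. Without 24 hpf replicate 2 there were 14057 gained and 13461 lost regions, without 90 hpf replicate 1 there were 22579 gained and 8400 lost, and without 90 hpf replicate 2 there were 18520 gained and 10898 lost. The excess of gained over lost regions thus differed with list length and with the libraries used.

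**Figure D1:**
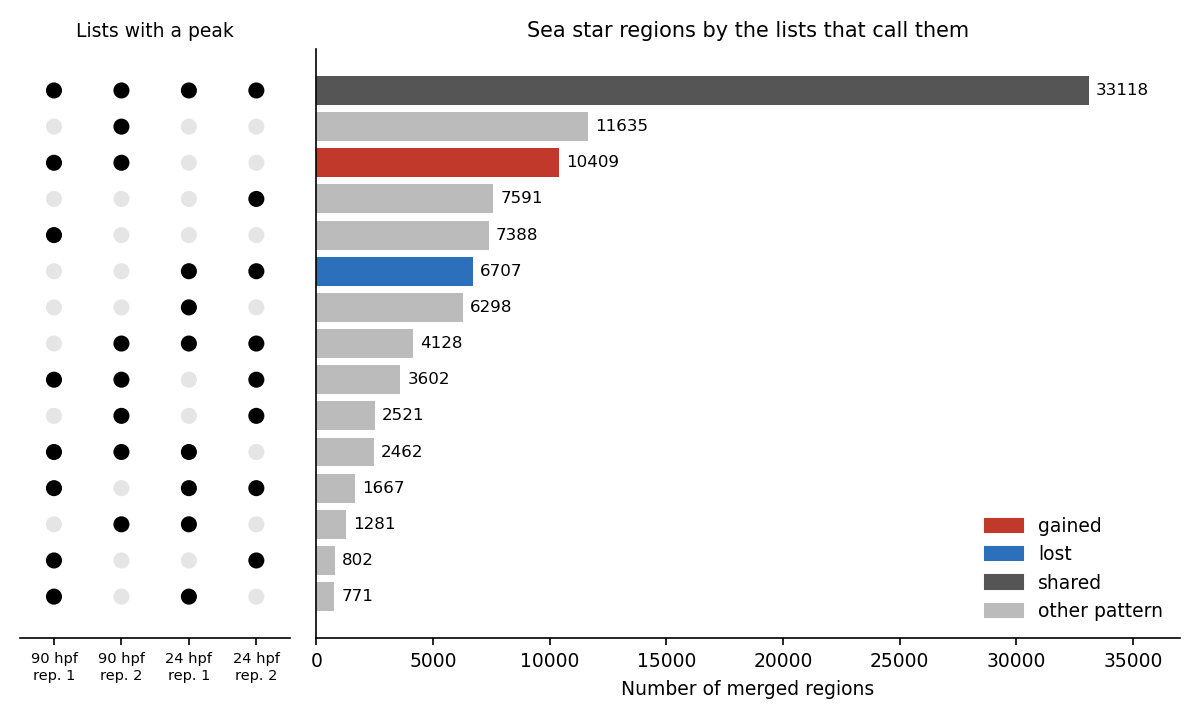
Number of merged sea star regions (x axis, regions) for each of the 15 patterns of calls in the 2 lists of 90 hpf and the 2 lists of 24 hpf; filled dots mark the lists with a peak. The pattern with all 4 lists was the largest, with 33118 regions, and the 11635 regions called in 90 hpf replicate 2 alone outnumbered the 10409 gained regions.

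Replicates disagreed about many regions. In all 32912 regions (32.8%) had a peak in 1 list alone, among them 11635 in 90 hpf replicate 2 and 7388 in 90 hpf replicate 1. A further 6064 regions were called in both 90 hpf lists and 1 of the 24 hpf lists, and 5795 in both 24 hpf lists and 1 of the 90 hpf lists. Counting these too, so that a stage needed both of its lists for presence, raised the counts to 16473 gained and 12502 lost regions.

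The strength of a peak set how far a missing call could be read. In the weakest 10% of the 24 hpf replicate 2 list, 35.5% of peaks overlapped a peak at 90 hpf (mean of both lists), against 32.9% in the other 24 hpf replicate. In the weakest 10% of the 90 hpf replicate 2 list, 25.4% were overlapped at 24 hpf and 28.1% in the other 90 hpf replicate. For these lists a weak peak was recovered about as often in the other stage as in its own replicate. The difference was wider for the weakest 10% of 90 hpf replicate 1, with 30.9% overlapped at 24 hpf and 48.3% in the other 90 hpf replicate, and small for 24 hpf replicate 1, with 37.5% at 90 hpf and 40.6% in the other 24 hpf replicate. The lists looked up differ in length. For 90 hpf replicate 1 the other replicate held 72079 peaks, against 59009 and 63148 at 24 hpf. The 35.5% for 24 hpf replicate 2 is a mean of 30.6 and 40.5% in the 90 hpf lists. The part of list length in these shares was not tested. In the middle of the lists the stages separated from the replicates. Between the 50th and 60th percentile of the 90 hpf lists, 66.9 and 65.7% of peaks were overlapped at 24 hpf, whereas 93.6 and 85.0% were overlapped in the other 90 hpf replicate. Nearly all of the strongest peaks were common to both stages: in the top 10% of each 90 hpf list, 98.9 and 98.7% of peaks were overlapped at 24 hpf, and in the top 10% of each 24 hpf list, 99.2 and 99.3% were overlapped at 90 hpf.

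**Figure D2:**
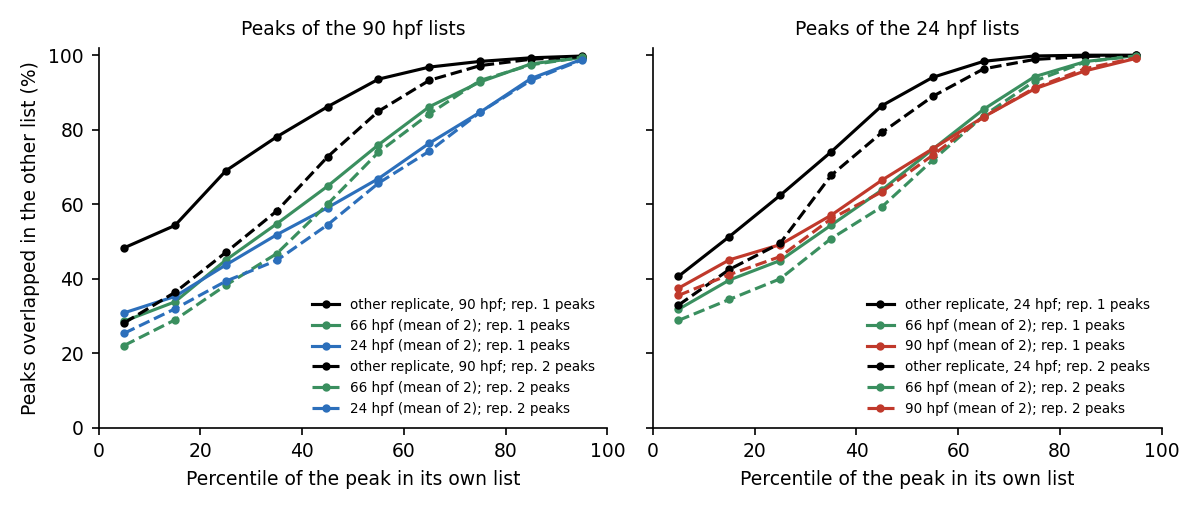
Share of peaks (y axis, %) overlapped by a peak of the other replicate, of the 66 hpf lists and of the other stage, by the strength percentile of the peak in its own list (x axis), for the 90 hpf lists on the left and the 24 hpf lists on the right. Solid and dashed lines are the peaks of replicates 1 and 2; curves for another stage are means of its 2 lists. All curves end between 98.7 and 100% in the top 10%, and at the low end the curves for the other stage and for the other replicate of the second replicates lie close together.

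Gained and lost regions were mostly of middling or low strength. Strength is tied to the rule, because weak peaks were missed more often in every list, and is given as a description. Gained regions had median percentiles of 37.6 and 40.9 in the 2 lists of 90 hpf, and median fold enrichments of 4.50 and 4.53. Lost regions had median percentiles of 36.0 and 36.6 in the 24 hpf lists, with fold enrichments of 4.45 and 4.33. Shared regions stood at medians of 70.8 and 74.6 at 90 hpf and 69.7 and 71.8 at 24 hpf. Few changed regions were strong: 0.375 and 0.413% of the gained regions lay above the 90th percentile in the 90 hpf lists, and 0.432 and 0.239% of the lost regions in the 24 hpf lists. Median widths of merged regions were 268 bp for gained, 251 bp for lost and 408 bp for shared regions, against 263 bp over all. A merged width depends on the number of lists joined, which is larger for shared regions. Single peaks had median widths of 227 and 239 bp in gained regions at 90 hpf and 221 and 217 bp in lost regions at 24 hpf. In shared regions they were 324 and 344 bp at 90 hpf and 322 and 323 bp at 24 hpf. Shared regions held 50.6% of all covered sequence.

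At late gastrula the gained regions were divided. Of the 10409, 3127 were already called in both 66 hpf lists (30.0%, interval 29.2 to 30.9%), 2779 in 1 list (26.7%) and 4503 in neither (43.3%, interval 42.3 to 44.2%). Either 66 hpf list alone called a similar share, 43.4% in replicate 1 and 43.3% in replicate 2. Of the 6707 lost regions, 3940 were already missing from both 66 hpf lists (58.7%, interval 57.6 to 59.9%), 1565 were called in 1 (23.3%) and 1202 were still called in both (17.9%, interval 17.0 to 18.9%). The change was therefore seen in both 66 hpf libraries in 30.0% of gained and 58.7% of lost regions. Over all 100380 merged regions, 41.4% were called in both 66 hpf lists and 40.8% in neither, and of the regions with other patterns 62.5% were called in neither, so that a missing call at 66 hpf was common outside the lost class too. These shares are not measures of one thing, because a gained region needs 2 peaks at 66 hpf to count as changed and a lost region needs 2 missing peaks, and the 66 hpf lists were the shortest. Some also moved with single libraries. The share of gained regions called in both 66 hpf lists was 17.6% without 90 hpf replicate 1 and 19.3% without 90 hpf replicate 2. The share of lost regions called in both was 10.4 and 11.4% without 24 hpf replicates 1 and 2, and 28.2% without 90 hpf replicate 2. With 66 hpf resting on 1 list it was 28.0% without replicate 1 and 31.2% without replicate 2.

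**Figure D3:**
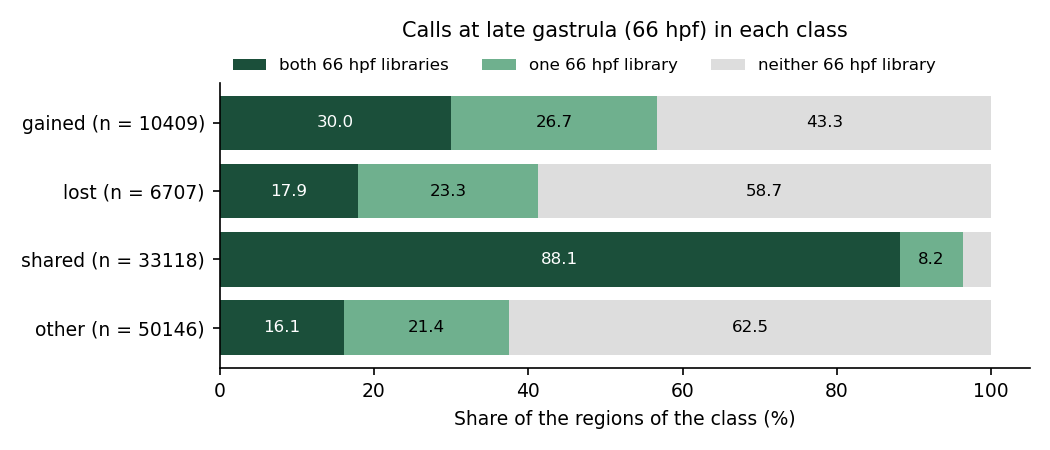
Share of the regions of each class (x axis, %) that were called in both, 1 or neither of the 66 hpf libraries, with the number of regions beside each class. Shared regions were called in both libraries in 88.1% of cases, gained regions in 30.0% and lost regions in 17.9%.

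Most shared regions were called at late gastrula. Of the 33118 shared regions, 29188 (88.1%) were called in both 66 hpf lists, 2718 (8.21%) in 1 and 1212 (3.66%) in neither. The regions without a call were mostly weak. Among shared regions whose weaker 90 hpf replicate lay at or below the 20th percentile of its list, 17.9% were called in neither 66 hpf list. Above the 80th percentile there were none among 10962, an upper interval bound of 0.0336%. Ranked at 24 hpf, 12.2% were called in neither list at or below the 20th percentile, and 11 of 10355 (0.106%) above the 80th.

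Calls at 66 hpf rose with strength in both changed classes. Among gained regions whose weaker 90 hpf replicate lay at or below the 20th percentile of its list, 14.4% of 3733 were called in both 66 hpf lists, and 58.4% in neither. Between the 60th and 80th percentile the shares were 63.9 and 20.03% of 1178 regions. Above the 80th they were 72.9% (interval 65.7 to 79.3%) and 19.8% (interval 14.2 to 26.4%) of 177 regions. Lost regions followed the same course by their strength at 24 hpf. At or below the 20th percentile 8.74% of 2516 were still called in both 66 hpf lists and 70.0% in neither. Above the 80th percentile 79 of 100 were still called in both (interval 69.7 to 86.5%), and 10 in neither (interval 4.90 to 17.6%). Most gained regions above the 80th percentile were thus called in both 66 hpf lists, as were most such lost regions. In shared regions this share rose with strength too. It went from 53.5% in the weakest bin to 99.7% in the strongest when ranked at 90 hpf, and from 64.4 to 99.6% at 24 hpf. The part of strength in the 66 hpf calls of changed regions was not tested. In each of the 4 bins of 20 percentiles below the 80th, gained regions were called in both 66 hpf lists more often than lost regions, and above the 80th the intervals overlapped.

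**Figure D4:**
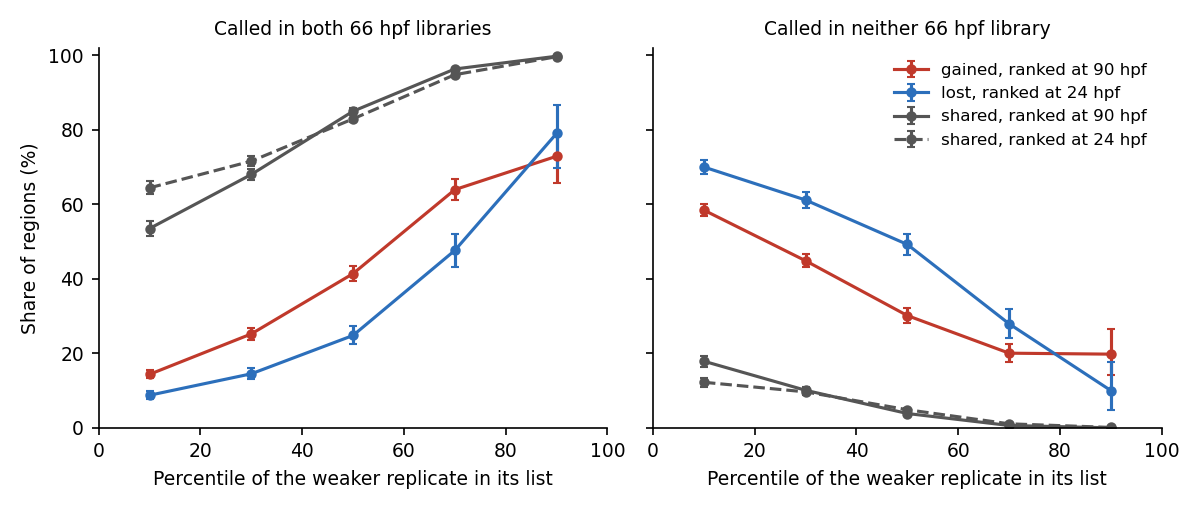
Share of regions (y axis, %) called in both 66 hpf libraries (left) and in neither (right), in 5 bins of the percentile of the weaker replicate in its list (x axis), for gained regions ranked at 90 hpf, lost regions ranked at 24 hpf and shared regions ranked at either stage. Bars are 95% exact intervals for counting error. Gained and lost regions of every bin lie below shared regions on the left, and the gained and lost curves cross before the top bin.

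Percentiles of changed regions with peaks at 66 hpf are given as a description, because a percentile depends on the length of its list and the 66 hpf lists were the shortest. The 3127 gained regions called in both 66 hpf lists had median percentiles of 41.1 and 38.7 at 66 hpf and of 51.6 and 55.5 at 90 hpf. Their median fold enrichments were 5.04 and 4.74 at 66 hpf and 4.99 and 5.18 at 90 hpf, and the replicates of these stages overlap. The 1202 lost regions still called in both lists had median percentiles of 53.2 and 52.0 at 24 hpf and of 41.9 and 38.7 at 66 hpf. Their median folds were 5.51 and 5.37 at 24 hpf and 5.28 and 5.17 at 66 hpf. An alternative chosen after seeing the data took the 56044 strongest peaks of each list and made the classes again. The 3077 gained regions called in both 66 hpf lists then had median percentiles of 43.2 and 38.8 at 66 hpf and of 49.1 and 47.2 at 90 hpf, a smaller gap than with the lists as deposited. The 1600 such lost regions had 50.3 and 46.2 at 24 hpf and 39.3 and 36.4 at 66 hpf. Gained regions with no 66 hpf call had median percentiles of 30.4 and 31.6 at 90 hpf, and lost regions with no 66 hpf call had medians of 30.9 and 32.3 at 24 hpf.

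The 10 strongest gained regions, ranked by the p of the weaker 90 hpf replicate, had fold enrichments of 11.2 to 23.3. Of these 5 were called in both 66 hpf lists, 2 in 1 and 3 in neither. The first lies on scaffold NW_024037054.1 of assembly Pmin_3.0, at positions 11753077 to 11753555, and the study's table of elements assigns it to the gene LOC119723013 as a distal element. It had no 24 hpf peak, fold enrichments of 14.9 and 13.3 at 66 hpf and of 20.9 and 20.6 at 90 hpf. The second, on NW_024037059.1 from 18983622 to 18984145, had 15.1 and 14.1 at 66 hpf and 21.4 and 18.5 at 90 hpf. In both regions the larval peaks stood above the late gastrula peaks on this scale.

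Other strong gained regions were called weakly or not at all before 90 hpf. A region of 737 bp on NW_024037063.1, from 20406036 to 20406772, had a single weak peak at 66 hpf, of fold enrichment 3.69 in replicate 1, and reached 16.1 and 18.6 at 90 hpf. A region on NW_024037064.1, from 9636031 to 9636467, had no peak in any of the 4 earlier libraries and fold enrichments of 23.3 and 17.8 at 90 hpf. The same held for a region on NW_024037063.1 from 7513385 to 7513756, with 17.9 and 19.9 at 90 hpf. A region on NW_024037057.1, from 5082390 to 5082842, was instead about as enriched at 66 hpf (16.2 and 12.3) as at 90 hpf (14.9 and 16.2), and the replicates of these stages overlap. Its percentiles were 91.8 and 80.5 at 66 hpf and 93.7 and 94.7 at 90 hpf. The widest gained region spanned 1227 bp on NW_024037048.1, from 10920721 to 10921947, with 9.77 and 8.31 at 66 hpf and 8.37 and 9.91 at 90 hpf.

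Of the 10 strongest lost regions, 9 were still called in both 66 hpf lists. The first, on NW_024037063.1 from 10364763 to 10365190, was among the strongest peaks of the whole blastula lists, at percentiles 99.7 and 99.6. Its fold enrichment was 17.0 and 18.03 at 24 hpf and 7.59 and 8.87 at 66 hpf, and neither 90 hpf list called it. A region on NW_024037071.1, from 8455705 to 8456110, did not weaken by late gastrula: it had 16.1 and 15.3 at 24 hpf and 15.3 and 16.2 at 66 hpf. A region on NW_024037061.1, from 3410952 to 3411364, had 13.6 and 14.4 at 24 hpf and 15.7 and 18.1 at 66 hpf. For both, the missing calls fell between 66 and 90 hpf. The exception among the 10, ranked 9, was a region of 729 bp on NW_024037072.1 between 25759901 and 25760629. It had 10.2 and 10.4 at 24 hpf, at percentiles 89.8 and 91.0, and no later call. Another lost region with no later call, on NW_024037056.1 from 5318666 to 5319151, had 14.0 and 11.9 at 24 hpf. The widest lost region, 1281 bp on NW_024037061.1 from 13628284 to 13629564, had 5.26 and 4.73 at 24 hpf and no later call.

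**Figure D5:**
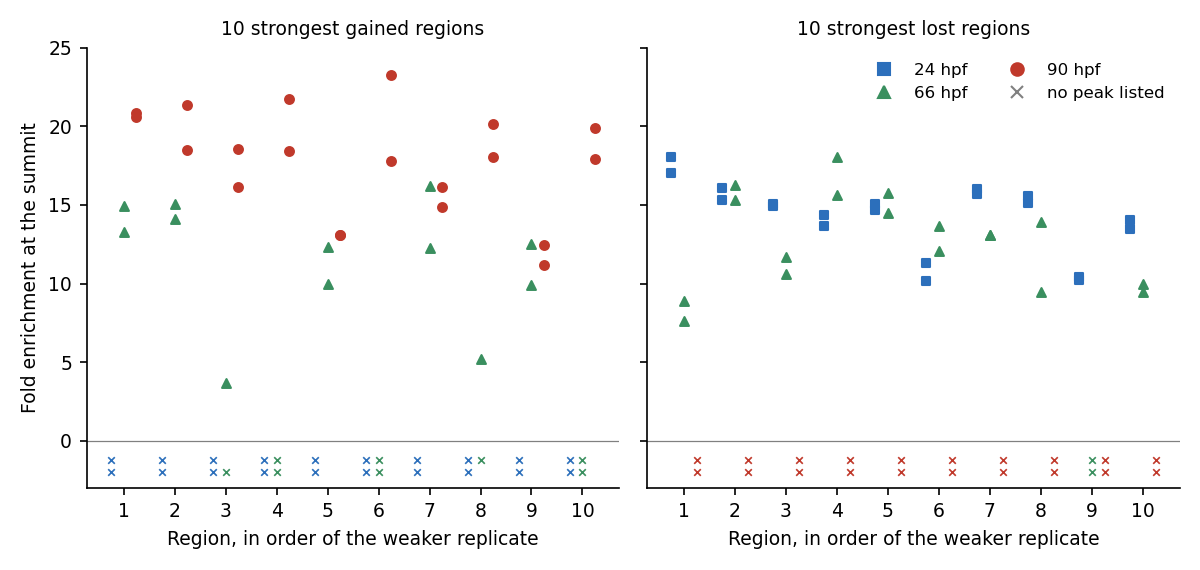
Fold enrichment at the summit (y axis, ratio to local background) of the 10 strongest gained regions (left) and the 10 strongest lost regions (right) in each of the 6 libraries, ordered by the p of the weaker replicate (x axis, rank). Squares, triangles and circles are the libraries of 24, 66 and 90 hpf, and crosses below the line mark libraries with no listed peak. Of the 10 gained regions 5 and of the 10 lost regions 9 have both triangles.

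Gene names could be given only for regions that overlap elements in the rows held of the study's tables, and those of the main table lie on 3 scaffolds, so these genes are examples and not a survey. Human gene names below are those of the orthologue group of the sea star gene, and the assignment of an element to a gene is the study's. Gained regions at genes related to transporters are grouped first here, which is not the order of strength, since some at other genes were stronger. A region on NW_024037054.1 from 8416190 to 8416707, assigned to LOC119722877, a relative of the SLC1A glutamate and neutral amino acid transporters, had fold enrichments of 7.36 and 4.74 at 66 hpf and of 11.7 and 12.8 at 90 hpf. The promoter of LOC119723579, in the group of the ABC transporter ABCC4, carried a gained region on NW_024037055.1 from 4975772 to 4976026, with 4.76 in 66 hpf replicate 2 alone and 7.95 and 8.09 at 90 hpf. LOC119723012, related to the ABCB transporters, had 3 gained regions with no 66 hpf call, the strongest from 11723383 to 11723890 on NW_024037054.1 with 6.85 and 7.19 at 90 hpf.

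Other gained regions lay at genes of several kinds. LOC119722975, in the group of the contactins, which are adhesion proteins of neurons in vertebrates, had 4 gained regions on NW_024037054.1. The strongest, from 10885114 to 10885467, had 3.72 in 66 hpf replicate 1 alone and 6.94 and 5.71 at 90 hpf. LOC119723167 and LOC119723108, both in the group of the DYNLT light chains of the motor protein dynein, had 1 gained region each with no 66 hpf call, of 4.52 and 4.27 and of 6.87 and 5.47 at 90 hpf. LOC119722913, related to the GAL3ST sulfotransferases, had a proximal gained region from 9040332 to 9040623 on NW_024037054.1, with 3.47 and 3.99 at 66 hpf and 5.84 and 4.83 at 90 hpf.

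Among lost regions, the strongest with a human orthologue lay on NW_024037054.1 from 17154992 to 17155456. It is assigned to LOC119722583, in the group of the C-type lectin CLEC6A, and had fold enrichments of 9.95 and 9.64 at 24 hpf and 4.35 in 66 hpf replicate 2 alone. A lost region on NW_024037055.1 from 2236571 to 2236840, proximal to a histone H2B gene (LOC119723406), had 2.86 and 3.07 at 24 hpf and no later call. Its percentiles of 64.4 and 67.6 were high for these folds. LOC119722968, in the group of QRICH1 and the ZMYM zinc finger proteins, had 2 lost regions with no later call, of 6.23 and 5.0 and of 4.46 and 3.93. Lost regions were also assigned to LOC119723077, related to the mitochondrial cytochromes CYP24A1 and CYP27A1, and to LOC119723129, related to secreted phospholipases A2. Both were called in every 24 and 66 hpf list, with folds of 3.36 to 4.57 at 24 hpf and 3.07 to 5.35 at 66 hpf. LOC119722950, related to the B3GALT galactosyltransferases, had 2 lost regions, the stronger with 5.23 and 4.07 at 24 hpf and 4.42 and 3.73 at 66 hpf. LOC119723324, in the group of the chitinases, had 1, with 4.91 and 3.93 at 24 hpf and 3.55 in 66 hpf replicate 2 alone.

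Gained and lost regions stood side by side at some genes, which were picked out after their values were seen. LOC119723461 and its neighbour LOC119723462 belong to the group of the NXPE proteins. On NW_024037055.1, a gained region at the promoter of LOC119723461 (3081454 to 3081782) was followed by a lost region (3083845 to 3084093) and by a gained region at the promoter of LOC119723462 (3086246 to 3086614). The first had 6.13 and 7.25 at 66 hpf and 6.51 and 4.74 at 90 hpf. The lost region had 4.69 and 4.19 at 24 hpf and no later call. The last had 8.22 and 8.08 at 66 hpf and 7.44 and 8.16 at 90 hpf. All 3 had changed in both libraries by late gastrula. LOC119723367, in the group of the phospholipid scramblases, had a gained region at its promoter and a lost proximal region, and LOC119723528, related to the natriuretic peptide receptors, had 1 gained and 2 lost regions. The gained region of LOC119723367 was weak, at percentiles 3.16 and 1.496 of the 90 hpf lists.

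Some elements that the study lists as conserved between phyla overlapped gained or lost regions as well, some of them only in part. No share over all such elements is given, because only part of the study's rows were held. One lies between LOC119721372, in the group of the beta integrins, which bind the extracellular matrix, and LOC119721376. It overlapped a gained region on NW_024037051.1 from 15187630 to 15187905. This region had no 24 hpf peak, 10.1 and 10.4 at 66 hpf and 20.2 and 13.7 at 90 hpf. One in LOC119719378 overlapped a gained region on NW_024037075.1 from 5893530 to 5893849, with 4.67 and 4.21 at 66 hpf and 6.70 and 6.67 at 90 hpf. The remaining gained elements of the rows held were weaker by the p of the weaker 90 hpf replicate. Their folds at 90 hpf ran from 3.82 to 6.71. The only lost one, in LOC119719965 on NW_024037076.1, had 3.10 and 3.41 at 24 hpf. The lost region, from 21000298 to 21000466, overlapped only the end of its element, listed from 20999961 to 21000348. A gained region on NW_024037072.1, from 27611129 to 27611273, overlapped only the start of its element, listed from 27611226 to 27611609.

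Some conserved elements were shared, and 2 of them are given here after their values were seen. The element whose sea urchin counterpart lies at *Msx*, a homeobox gene, is in LOC119739984. It overlapped a shared region on NW_024037071.1 from 9950560 to 9951825. This region had fold enrichments of 7.90 and 8.26 at 24 hpf, 7.36 and 6.38 at 66 hpf and 6.07 and 5.21 at 90 hpf. It stayed between percentiles 84.5 and 91.1 in all 6 lists. The element in LOC119727136, whose counterpart lies at the chromatin protein gene *HMG1*, overlapped 2 shared regions on NW_024037059.1. The one from 5326989 to 5328299 was near the top of every list, between percentiles 98.1 and 99.6. The one from 5329090 to 5329440 lay between percentiles 34.8 and 69.7. The element is listed from 5327978 to 5329298, so each region lay only in part within it.

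Within the shared class, strength changed between stages by more than between replicates. The median absolute change in percentile was 8.79 to 10.1 points over the 4 pairs of a 90 hpf and a 24 hpf library, against 5.61 points between the 90 hpf replicates and 5.23 between the 24 hpf replicates. Changes of over 50 points were found in 3.32 to 4.22% of regions between stages and in 0.930 and 0.459% between replicates. In all 4 pairs at once, 154 shared regions rose by over 50 points and 90 fell by as much. With a limit of 25 points these numbers were 1462 and 905. The 154 regions that rose had median percentiles of 12.5 and 13.3 at 24 hpf, 67.0 and 67.7 at 66 hpf where called, and 79.2 and 81.8 at 90 hpf. The 90 that fell had 79.9 and 81.2 at 24 hpf, 45.9 and 44.9 at 66 hpf where called, and 13.5 and 15.4 at 90 hpf. The 66 hpf lists had no part in choosing these regions. Where called at 66 hpf, the rising regions stood closer to their larval than to their blastula level, and the falling ones in between. These medians rest on 145 and 147 of the 154 rising regions and on 71 and 68 of the 90 falling regions. Falling regions without a 66 hpf peak are left out of them, so the timing of the rising and falling sets cannot be compared by these medians. Both 66 hpf lists called 141 of the 154 rising regions and 60 of the 90 falling regions.

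The shared region with the largest rise in all pairs was on NW_024037061.1 from 15686716 to 15687290. Its percentiles were 12.5 and 10.9 at 24 hpf, 72.9 and 82.7 at 66 hpf and 91.2 and 93.3 at 90 hpf. A region on NW_024037067.1, from 6570476 to 6570763, had folds of 4.04 and 3.45 at 24 hpf, 13.3 and 13.9 at 66 hpf and 14.5 and 14.4 at 90 hpf, so that nearly all of its change came before late gastrula. The largest fall was on NW_024037068.1 from 21676855 to 21677203, with percentiles of 90.4 and 86.1 at 24 hpf, 74.2 and 68.9 at 66 hpf and 10.04 and 8.91 at 90 hpf. A region on NW_024037059.1, from 40383965 to 40384343, had folds of 13.2 and 13.4 at 24 hpf, no peak at 66 hpf, and 3.82 and 3.42 at 90 hpf. Its 90 hpf peaks were among the weakest of their lists, at percentiles 10.04 and 2.82.

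The position of the summit moved little. In shared regions the median distance between summits was 27 to 31 bp over the 4 pairs between stages, against 24 bp between the 90 hpf replicates and 25 bp between the 24 hpf replicates. Summits over 200 bp apart were found in 3.07 to 3.39% of regions between stages and in 2.204 and 2.035% between replicates.

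Gained and lost regions tended to have neighbours of their own class, as did shared regions (41.9% against 33.0% of all, a ratio of 1.27). The nearest merged region was itself gained for 17.6% of gained regions, although gained regions were 10.4% of all, a ratio of 1.70. It was lost for 12.1% of lost regions, which were 6.68% of all, a ratio of 1.81. A lost region was the nearest neighbour of 4.03% of gained regions, a ratio of 0.604, and a gained region that of 5.67% of lost regions, a ratio of 0.546. A shared region lay within 200 bp of 3.64% of gained and 6.37% of lost regions, and a region of any class within 200 bp of 14.2 and 20.9%. The median distances to the nearest shared region were 4454 and 3810 bp. Peaks that touched a shared region were merged into it, so these shares cannot show how often changed peaks were fragments at its edge.

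The classes were spread over the genome. On each of the 28 scaffolds with at least 1000 regions, gained regions outnumbered lost ones, from 1.10 to 1 on NW_024037054.1 to 2.50 to 1 on NW_024037065.1. This held for the lists as deposited. With the 56044 strongest peaks of each list, a setting added once the data had been seen, 16 of these scaffolds had more gained regions, 11 had more lost regions and 1 had as many of each, and the ratios ran from 0.791 to 1.93. The densest window of 100 kb held 17 gained, 2 lost and 14 shared regions, of 47 in all, on NW_024037074.1, between 42622683 and 42721525. Of its gained regions 10 were called in both 66 hpf lists and 7 in neither. The densest window of lost regions, on NW_024037063.1 between 15391002 and 15484442, held 33 regions. Of these 11 were lost, 10 were shared and none was gained. Of the lost ones 9 were already missing from both 66 hpf lists. Of 5726 windows of 100 kb with any region, 538 held 5 or more gained and 172 held 5 or more lost regions, and 21 held 5 or more of each.

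The same rule applied to the separate steps counted gained regions on either side of late gastrula and more lost regions before it than after it. From 24 to 66 hpf, 4771 regions were gained (5.38% of 88663 merged regions), 6809 lost (7.68%) and 32926 shared (37.1%). From 66 to 90 hpf, 6973 were gained (7.56% of 92188), 2336 lost (2.53%) and 35411 shared (38.4%). Both steps share the 66 hpf libraries, whose lists were the shortest, and the part of list length in these counts was not tested. In the sea urchin, between 24 hpf and the pluteus larva at 72 hpf, 1506 regions were gained (2.31% of 65251), 3404 lost (5.22%) and 9861 shared (15.1%). There the 72 hpf lists differed in length, with 38010 and 19469 peaks against 39511 and 31112 at 24 hpf, and the difference between species was not tested.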

How the data were processed

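Peak lists of 6 sea star ATAC-seq libraries (2 each at 24, 66 and 90 hpf) were used, with 4 sea urchin lists for comparison. The study's methods state that reads were aligned to Pmin_3.0, duplicates removed, read ends offset for the transposase and short fragments kept. Bowtie2, SAMtools and MACS2 are the tools in the submitters' processing notes. Peaks were called per replicate. The deposited columns are the authors' MACS2 values: fold enrichment, which is the ratio of the summit's signal to its background, the −log10 p-value and −log10 q-value, a score derived from q and the summit offset. The weakest peaks listed had q values of 0.0151 to 0.0484 in the sea star. The study's later step of keeping reproducible peaks was not applied to these lists.

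Python 3.11.15 with numpy 2.4.6, pandas 2.3.3, scipy 1.17.1 and matplotlib 3.10.9 was used. Merging was checked against bedtools 2.31.1, and classes were checked on simulated lists. Where a list had several peaks in a region, the one with the lowest p was taken. No statistical test was run. The alternatives were no merging, overlap of 50%, merging up to 100 bp apart, q limits of 0.01 and 0.001, equal list length, a looser rule of absence, leaving out each library, ranking by fold and a limit of 25 points.

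Regions were named by rule: the 10 strongest gained and lost, also among those with no 66 hpf call; the 5 shared with the largest rise and fall; the widest; the densest window of 100 kb; and those at listed elements with named genes. The text names part of these. The shared conserved elements, and the genes with gained and lost regions side by side, were instead picked after their values were seen. The classes, lists and alternatives were chosen with earlier results of these data known. Sequences and gene annotation of the sea star genome were not used here. 1 item was left out and is not reported here.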

Additional observations from a re-analysis of the deposited data

Results flagged for a closer look

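Regions outside all 3 classes were called at late gastrula alone. Of 42802 regions called in both 66 hpf lists, 615 (1.44%, 95% exact interval 1.33 to 1.55%, counting error only) overlapped no peak in any 24 or 90 hpf list. They drew attention because they lie outside every comparison between the larva and the blastula, which cannot see a region that opens and closes between these stages. Most were weak, with median fold enrichments of 4.40 and 4.26 and a median percentile of 15.0 in the weaker replicate. The strongest, at positions 10085769 to 10086014 of NW_024037072.1, reached 13.6 and 9.00 in the 66 hpf lists on that scale. The part of missed calls at 24 and 90 hpf in this number was not tested.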

How the results depend on the processing

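No paired analysis was possible because the classes come from no test and the replicate numbers only name libraries. Gained regions outnumbered lost ones under 11 of 12 alternatives, but only by 1.09 to 1 at equal list length. Leaving out 1 library gave 12923 to 22579 gained, 8400 to 14809 lost and 34857 to 37342 shared regions, and lost regions led without 24 hpf replicate 1. Counting a region as absent unless both replicates called it gave 16473 gained and 12502 lost regions. The other alternatives kept the counts within 1.5 times.

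The share of gained regions called in both 66 hpf lists was 27.3% with 50% overlap, 38.1% at equal list length and 31.7% when presence needed a q of at most 0.001, an alternative chosen after seeing the data, and 17.6 to 43.4% without 1 library. The share of lost regions missing from both was 60.5%, 52.7% and 57.4% under the same 3 settings and 46.3 to 72.0% without 1 library. It exceeded the gained share under each alternative for which both were computed, and neither was computed under the looser rule of absence. This order says little about the classes, because a share of missing calls is set against a share of calls in every alternative. Among regions with other patterns, too, 62.5% were called in neither 66 hpf list and 16.1% in both. Leaving out a library makes its stage rest on the calls of 1 list, which admits peaks that no replicate repeats. The clustering ratio, summit and percentile values rest on listed peaks alone. Peaks under the threshold were not seen, and no list gives a read count, so neither class can be read as a measured change in accessibility. The share of regions whose nearest region was of their own class was 17.7 to 18.3% for gained and 11.3 to 13.6% for lost regions under 3 alternatives. Ranking by fold gave 209 shared regions with a change over 50 points in place of 244, and a limit of 25 points gave 2367.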
